A study of Mus musculus with 8 samples.

Results

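The genes described here are 44 genes of mitosis, chosen by name for their part in cell division and measured in whisker follicles of mice given E7386 or vehicle. All 44 passed the detection filter and are among the 25353 genes tested. Each gene is represented by its brightest probe, taken over the mean of the 8 arrays, and the genes were sorted by role into entry into mitosis (7 genes), mitotic chromosomes (3), spindle (8), kinetochore (7), chromosomal passenger complex (4), checkpoint and exit (8) and cytokinesis (7). E7386, an oral small molecule, has been described as a blocker of the interaction between beta-catenin and its coactivator CBP, and the comparison asks how its dosing bears on gene expression in a tissue that makes hair.

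All mice were female and carried the ApcMin/+ genotype, in which 1 allele of Apc is truncated in every cell. Apc takes part in the degradation of beta-catenin. Both groups share the genotype, and its effect on beta-catenin in these follicles was not measured. The E7386 group (4 samples) was dosed orally at 30 mg/kg, with 2 doses per day, over 4 cycles of 5 days with the drug followed by 2 days without it, beginning at 8 weeks of age. The vehicle group (4 samples) received vehicle. Follicles were taken 6 h after the last dose. Separate mice are not stated as the source of the samples, so p-values cover only the spread among these samples, which may be technical. All 8 arrays lie on 1 slide, E7386 in row 2 and vehicle in row 1, and row and treatment cannot be told apart. The 75th percentile of the processed signal over all mouse spots lay between 459.4 and 656.2. Each array was scaled by the 75th percentile of its log2 probe values, without marked spots. Well above background were 61.5% to 61.9% of the mouse spots on E7386 arrays and 62.2% to 64.7% of those on vehicle arrays. Levels are given as log2 signal minus the percentile used for scaling, so a level of 0 equals that percentile of its array. A difference of 1 is a 2-fold difference. Levels of different genes come from different probes and are not set against each other. The number of arrays limits the precision.

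In mitosis the kinase CDK1, bound to a B-type cyclin, drives condensation of the chromosomes and assembly of the spindle, whose microtubules are captured by kinetochores built on each centromere. The spindle checkpoint holds back the anaphase promoting complex until every kinetochore is attached, after which cyclin B and securin are degraded, the sister chromatids part and the cell is cleaved. In an anagen hair follicle, dividing cells are concentrated in the matrix of the bulb, where they give rise to the shaft and the inner root sheath.

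Most mitosis genes are transcribed in a burst in G2 and M, a timing that in mammalian cells is set largely by a promoter element called the cell cycle genes homology region (CHR), bound by the MuvB complex, often together with CCAAT boxes bound by NF-Y. The sequences of 5 promoters are shown because they carry these elements in different forms, or, for Pttg1, none of the forms searched. Each line gives the 130 bases before the annotated start of the gene, 5′ to 3′ on the strand of the gene, from RefSeq on GRCm38.p6. The stretches are chr10:69352913-69353042 (minus strand) for Cdk1, chr7:122159305-122159434 (plus strand) for Plk1, chr11:99024190-99024319 (minus strand) for Top2a, chr4:118437344-118437473 (minus strand) for Cdc20 and chr11:43425982-43426111 (minus strand) for Pttg1. Capitals mark matches on either strand to TTTGAA or TTTAAA, the forms of the CHR searched, and to CCAAT.
Cdk1: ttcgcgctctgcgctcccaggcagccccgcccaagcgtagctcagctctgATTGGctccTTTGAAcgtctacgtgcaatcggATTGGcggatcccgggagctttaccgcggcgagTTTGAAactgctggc
Plk1: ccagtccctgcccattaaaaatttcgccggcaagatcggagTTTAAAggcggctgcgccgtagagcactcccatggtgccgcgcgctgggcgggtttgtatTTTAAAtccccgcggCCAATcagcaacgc
Top2a: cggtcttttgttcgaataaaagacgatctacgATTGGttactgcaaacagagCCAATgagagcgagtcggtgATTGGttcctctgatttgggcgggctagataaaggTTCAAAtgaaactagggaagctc
Cdc20: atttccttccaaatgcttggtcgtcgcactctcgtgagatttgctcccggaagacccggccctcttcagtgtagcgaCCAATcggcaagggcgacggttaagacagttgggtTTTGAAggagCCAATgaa
Pttg1: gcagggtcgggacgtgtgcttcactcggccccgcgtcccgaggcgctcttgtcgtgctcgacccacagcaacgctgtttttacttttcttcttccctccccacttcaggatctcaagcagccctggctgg

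The promoter table holds 35 of the 44 genes, each with 250 bases before and 50 bases after the start. Of these 35 promoters, 27 (77.1%) contained TTTGAA on either strand, against 18.1% of the 27025 genes in the table. TTTAAA occurred in 9 (25.7%) of the mitosis promoters and in 13.2% of all promoters. CCAAT occurred in 27 (77.1%), against 37.9% of all promoters, and 18 mitosis promoters (51.4%) held at least 2 matches, against 12.2%. Both TTTGAA and CCAAT were present in 24 (68.6%) of the mitosis promoters and in 7.12% of all promoters. The promoters of Nuf2, Nusap1, Mad2l1 and Pttg1 held none of these letters in this window. A match is a description of the sequence and not a bound site. The genes without an entry in the table are Ccna2, Cdc25c, Foxm1, Pbk, Tpx2, Dlgap5, Aurkb, Incenp and Kif20a.

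No mitosis gene passed the test after E7386. Of the 44 genes, 0 had an adjusted p under 0.05 (limma, Benjamini-Hochberg over all genes, n = 4 per group), where 1.12% of all genes tested had one, and 0 had an unadjusted p under 0.05, where 15.2% of all genes had one. With the replicate number, which same-numbered arrays share with their slide column, as a block in limma, 0 passed. Unadjusted p under 0.05 was then reached by 5 of them (11.4%), all lower, against 16.8% of all genes. No mitosis gene had all E7386 arrays below all vehicle arrays, where 5.7% of all genes did, and none had all E7386 arrays above all vehicle arrays, where 4.83% did. The differences were small. Among the 42 mitosis genes detected on all 8 arrays they ran from -0.35 for Ttk to 0.12 for Foxm1. Cenpf and Aurkb were not well above background on every array, and their measured differences of -0.39 and 0.26 are uncertain. Over all 44 genes the absolute difference was under 0.1 for 23 genes and under 0.2 for 37.

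The mean was lower with E7386 for 34 of the 44 genes, against 48.0% of all genes tested, and the median difference was -0.068 over the mitosis genes and 0.0088 over all genes. The share of genes with a lower mean depended on single arrays. It was 22, 24 and 23 of 44 without E7386 replicate 4, E7386 replicate 3 and vehicle replicate 1, and 41 of 44 both without E7386 replicate 1 and without vehicle replicate 4. The counts by role given below moved with them. When 1 array was left out, lower means numbered 3 to 6 of 7 entry genes, 3 of 3 chromosome genes, 1 to 8 of 8 spindle genes, 3 to 6 of 7 kinetochore genes, 2 to 4 of 4 passenger genes, 5 to 8 of 8 checkpoint and exit genes and 2 to 7 of 7 cytokinesis genes. In whole follicles, fewer cells of a type and less RNA per cell cannot be told apart.

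**Figure D1:**
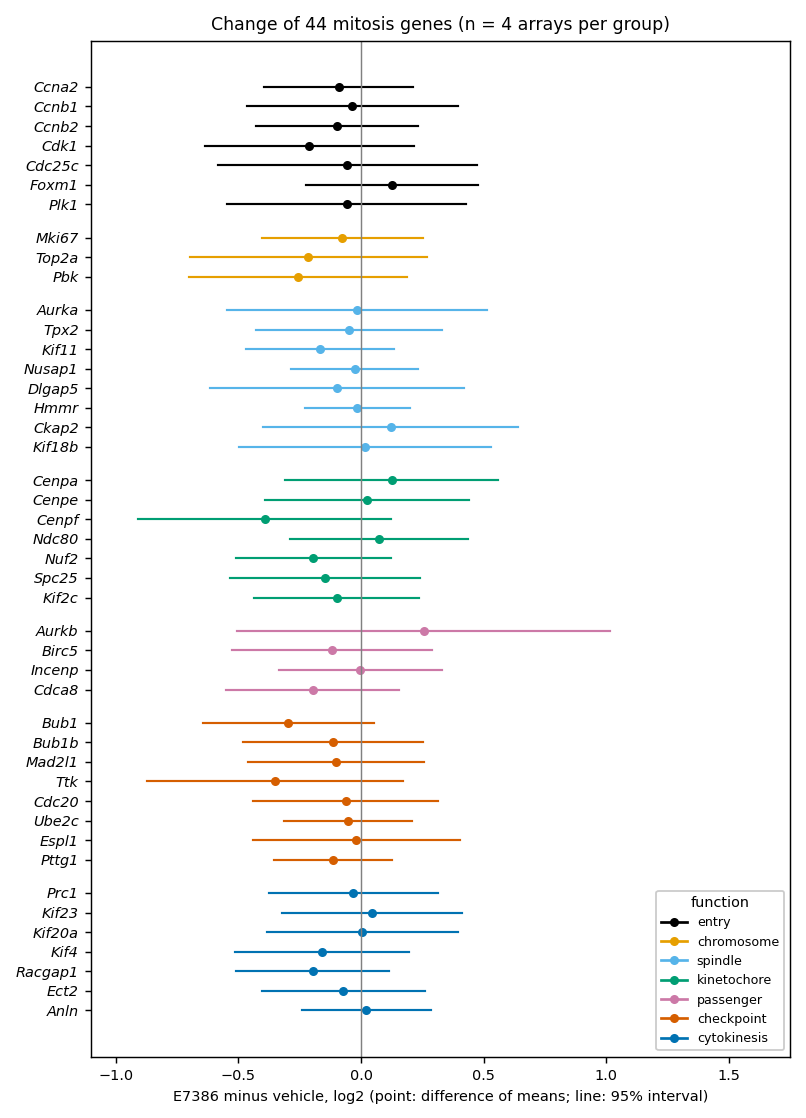
Difference in normalised log2 signal, E7386 minus vehicle, for each of the 44 mitosis genes, grouped by role; points are limma estimates, bars are 95% confidence intervals and n = 4 arrays per group. All 44 intervals include 0, and all but that of Aurkb lie within 1 log2 unit of 0.

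The intervals bound what these arrays could have missed with the probe used for each gene. Other detected probes of Mad2l1 (-0.54) and Pttg1 (0.23) differed by values outside the intervals of these genes. Cenpf was well above background on 0 E7386 arrays, so its interval is uncertain. Every one of the 44 95% confidence intervals includes 0. For 43 genes the interval lies wholly within 1 log2 unit, or 2-fold, of no difference, the exception being Aurkb with an upper limit of 1.02, and for 35 genes it lies within 1.5-fold. In simulated data with the spread of these arrays, independent between genes, the test recovered 38.6% of genes that differed by 0.5 log2 units and 75.2% of those that differed by 1. The changed genes were drawn at random from all genes, whose median SD of 0.18 lay below the 0.24 of the mitosis genes. Recovery of mitosis genes alone was not simulated. A shift of under 0.5 in single mitosis genes would thus often not have been detectable with 4 arrays per group.

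Among the genes of entry into mitosis, 6 of 7 had a lower mean with E7386, with differences between -0.21 and 0.12. Cdk1, the kinase of mitotic entry, had levels of 0.41, 0.35, 0.14 and 0.0025 on E7386 arrays and 0.78, 0.63, 0.39 and -0.052 on vehicle arrays. The lowest level of Cdk1 belonged to a vehicle array, and all 4 E7386 values lay inside the vehicle range. The Cdk1 difference of -0.21 (SE 0.19) had a 95% interval of -0.64 to 0.22 (limma, Benjamini-Hochberg adjusted p = 0.645).

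Foxm1, a forkhead transcription factor that activates G2 and M genes, had levels of -0.18, -0.64, -0.42 and -0.54 on E7386 arrays and -0.26, -0.48, -0.67 and -0.87 on vehicle arrays. It was the gene of this role with a higher mean with E7386, by 0.12 (SE 0.15, limma adjusted p = 0.759), and the groups overlapped over most of their range. Its other probe differed in the same direction, by 0.18. Ccnb1, cyclin B1, had levels of 2.11, 1.86, 1.57 and 1.52 on E7386 arrays and 2.13, 1.97, 1.68 and 1.43 on vehicle arrays, which are almost the same 4 values in each group. Plk1, the polo-like kinase that activates the CDK1 phosphatase and matures centrosomes, had levels of 2.30, 2.17, 1.78 and 1.57 on E7386 arrays and 2.27, 2.18, 2.06 and 1.53 on vehicle arrays. Ccna2 (cyclin A2), Ccnb2 (cyclin B2) and Cdc25c, the phosphatase that removes the inhibitory phosphates of CDK1, differed by -0.092, -0.098 and -0.057.

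The 3 genes of mitotic chromosomes all had a lower mean with E7386. Mki67, which coats mitotic chromosomes and is the antigen of the Ki-67 stain for dividing cells, had levels of 3.82, 3.61, 3.34 and 3.31 on E7386 arrays and 3.83, 3.60, 3.60 and 3.37 on vehicle arrays. Its means were 3.52 ± 0.24 on E7386 arrays and 3.60 ± 0.19 on vehicle arrays (SD, n = 4 each), a difference of -0.077 within an interval of -0.41 to 0.25. The highest and the lowest Mki67 values of the groups thus lay within 0.1 of each other.

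Top2a, topoisomerase II alpha, which untangles sister chromatids, had levels of 0.83, 0.55, 0.35 and 0.022 on E7386 arrays and 0.95, 0.76, 0.70 and 0.20 on vehicle arrays. Pbk, a kinase active in mitosis, had levels of 0.34, -0.094, -0.24 and -0.29 on E7386 arrays and 0.53, 0.29, 0.16 and -0.23 on vehicle arrays. In both genes the E7386 values were shifted down by less than the distance between arrays of 1 group. The differences were -0.21 (SE 0.21, limma adjusted p = 0.682) for Top2a and -0.26 (SE 0.19, limma adjusted p = 0.578) for Pbk.

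Of the 8 spindle genes, 6 had a lower mean with E7386, and the differences ran from -0.17 to 0.12. Kif11, the motor that pushes spindle poles apart, had levels of -1.90, -2.07, -2.42 and -2.30 on E7386 arrays and -1.85, -1.93, -2.17 and -2.07 on vehicle arrays. Its difference was -0.17 (SE 0.13, limma adjusted p = 0.594), and 2 of the E7386 values lay below the lowest vehicle value. Ckap2, a microtubule-associated protein of the spindle, had levels of -0.85, -0.96, -1.31 and -1.41 on E7386 arrays and -0.98, -0.90, -1.28 and -1.85 on vehicle arrays. Its higher mean with E7386, by 0.12 (SE 0.23), came with 1 vehicle array well below the other 7. The kinase Aurka, which acts at spindle poles, its activator Tpx2, and the microtubule-binding proteins Nusap1, Dlgap5 and Hmmr differed by -0.017, -0.050, -0.027, -0.098 and -0.015, and Kif18b, a kinesin that shortens astral microtubules, by 0.015.

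**Figure D2:**
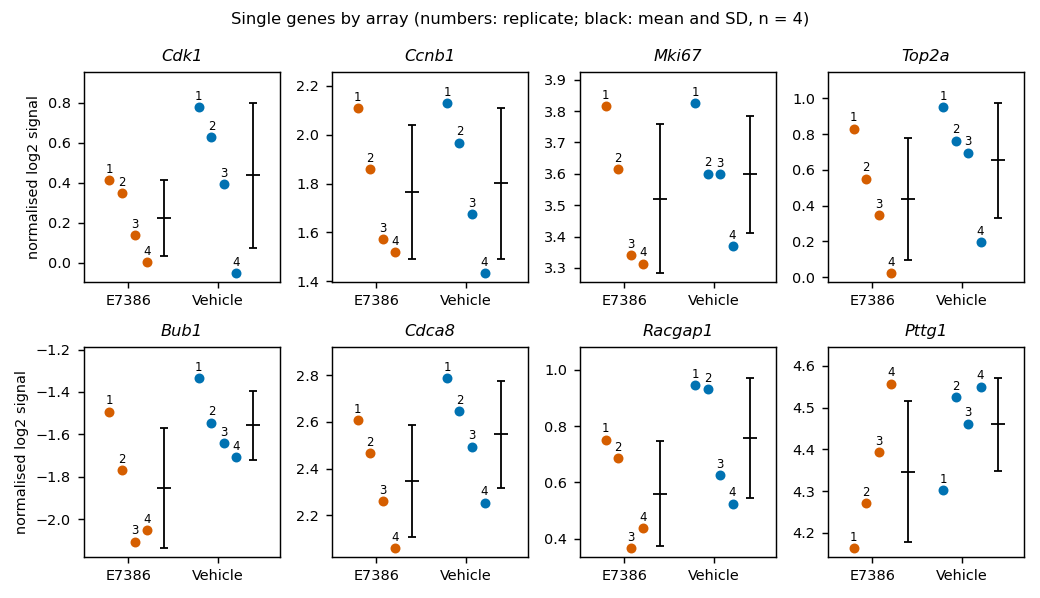
Normalised log2 signal of Cdk1, Ccnb1, Mki67, Top2a, Bub1, Cdca8, Racgap1 and Pttg1 on each array, E7386 (left) and vehicle (right), with a scale of its own for each gene, the replicate number above each point and the mean and SD of each group in black (n = 4). The groups overlap in every gene plotted.

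Among the kinetochore genes, 4 of 7 had a lower mean with E7386. Cenpf, a large coiled-coil protein of the outer kinetochore, had levels of -5.04, -4.69, -4.80 and -5.48 on E7386 arrays and -4.87, -4.87, -4.11 and -4.60 on vehicle arrays. It was well above background on 0 E7386 arrays and 3 vehicle arrays, so its level with E7386 is only a bound. With E7386 values below the lowest level called well above background on their array raised to that level, Cenpf was 1.22-fold lower with E7386. That value is no firm limit, and the measured difference did not pass the test (limma adjusted p = 0.455, 95% interval -0.91 to 0.12). The Cenpf difference was -0.23 without E7386 replicate 4, -0.22 without vehicle replicate 3, and 0.072, with the sign turned, after normexp on median signals, a fit chosen after seeing the data. The measured means were -5.00 ± 0.35 on E7386 arrays and -4.61 ± 0.36 on vehicle arrays (SD, n = 4 each).

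Nuf2, which with Ndc80 and Spc25 belongs to the complex that grips microtubule ends, had levels of -2.10, -1.98, -2.26 and -2.36 on E7386 arrays and -1.81, -1.86, -1.93 and -2.33 on vehicle arrays. Of the vehicle values, 3 lay above all E7386 values, and the fourth lay at the bottom of the E7386 range. The Nuf2 difference was -0.19 (SE 0.14, limma adjusted p = 0.553), while its partners differed by 0.074 for Ndc80 and -0.15 for Spc25. Cenpa, the histone H3 variant of centromeres, and Cenpe, a motor that moves chromosomes to the plate, had higher means with E7386, by 0.12 and 0.024, and Kif2c, a kinesin that depolymerises microtubules at centromeres, differed by -0.10.

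In the chromosomal passenger complex, which corrects faulty attachments, Cdca8 (borealin) had levels of 2.61, 2.47, 2.26 and 2.06 on E7386 arrays and 2.79, 2.65, 2.49 and 2.25 on vehicle arrays. Each group spanned over 0.5, and ranked within groups from high to low the E7386 values sat about 0.2 lower. The unpaired difference was -0.20 (SE 0.15, limma adjusted p = 0.595). Birc5 (survivin) had levels of 3.46, 3.15, 2.94 and 2.84 on E7386 arrays and 3.47, 3.41, 3.13 and 2.86 on vehicle arrays, a difference of -0.12, while its other detected probes differed by 0.010 and 0.058. Incenp, the scaffold of the complex, had levels of 3.40, 3.22, 3.05 and 2.97 on E7386 arrays and 3.43, 3.27, 3.08 and 2.87 on vehicle arrays, nearly the same in each group. Aurkb, the kinase of the complex, was well above background on 1 E7386 array and 3 vehicle arrays, with levels of -3.75, -5.06, -4.97 and -4.91 on E7386 arrays and -4.65, -4.75, -4.73 and -5.58 on vehicle arrays. Its difference of 0.26 (SE 0.33, limma adjusted p = 0.774) came with a single high E7386 array and a single low vehicle array.

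All 8 genes of the checkpoint and of exit from mitosis had a lower mean with E7386, with a median difference of -0.11. Without vehicle replicate 1 this held for 5 of 8 with a median of -0.033, without E7386 replicates 3 and 4 for 6 and 7 with medians of -0.070 and -0.048, and without vehicle replicate 4 for 8 with a median of -0.21. Bub1, a checkpoint kinase at kinetochores, had levels of -1.49, -1.77, -2.10 and -2.05 on E7386 arrays and -1.33, -1.54, -1.64 and -1.71 on vehicle arrays. Of the 4 E7386 values, 3 lay below the lowest vehicle value and the fourth lay among the vehicle values. The means were -1.85 ± 0.28 on E7386 arrays and -1.56 ± 0.16 on vehicle arrays (SD, n = 4 each). The difference of -0.30 (SE 0.15, 95% interval -0.65 to 0.051) had the smallest p of the mitosis genes, 0.0849 before and 0.400 after Benjamini-Hochberg adjustment in limma.

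Ttk (Mps1), the kinase that starts checkpoint signalling, had levels of -3.51, -4.44, -3.72 and -3.98 on E7386 arrays and -3.14, -3.58, -3.65 and -3.88 on vehicle arrays. The difference of -0.35 (SE 0.23, limma adjusted p = 0.512) came with 1 E7386 array below all 7 other arrays. The checkpoint proteins Bub1b and Mad2l1 differed by -0.12 and -0.10, and the other probes of Mad2l1 by -0.54 and -0.43. Cdc20, the activator of the anaphase promoting complex that the checkpoint holds back, differed by -0.064, the ubiquitin-conjugating enzyme Ube2c by -0.053 and Espl1, the separase that cleaves cohesin, by -0.019.

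Pttg1, the securin that holds separase inactive, had levels of 4.16, 4.27, 4.39 and 4.56 on E7386 arrays and 4.30, 4.52, 4.46 and 4.55 on vehicle arrays. In each group the array with the lowest Pttg1 was the one on which most mitosis genes were highest. The difference of -0.11 (SE 0.10, limma adjusted p = 0.663) was not shared by its other probe, at 0.23.

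Of the 7 cytokinesis genes, 4 had a lower mean with E7386, with differences between -0.20 and 0.045. Racgap1, the part of centralspindlin that directs the cleavage furrow, had levels of 0.75, 0.68, 0.37 and 0.44 on E7386 arrays and 0.95, 0.93, 0.63 and 0.52 on vehicle arrays. In each group 2 arrays were high and 2 low, and the difference was -0.20 (SE 0.14, limma adjusted p = 0.541). Kif4, a chromosome-bound kinesin of the central spindle, had levels of -1.44, -1.72, -2.07 and -1.98 on E7386 arrays and -1.39, -1.73, -1.69 and -1.76 on vehicle arrays, a difference of -0.16 (SE 0.15, limma adjusted p = 0.679). Kif23, the partner of Racgap1 in centralspindlin, Kif20a, another kinesin of the central spindle, and Anln, an actin-binding protein of the contractile ring, differed by 0.045, 0.0042 and 0.022. Prc1, which bundles central spindle microtubules, and Ect2, the exchange factor that activates RhoA, differed by -0.031 and -0.072.

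Of the 44 genes, 15 have more than 1 probe. Of their 19 other probes, 18 were detected, and 13 of these differed in the direction of the probe used. The detected probes that differed the other way were those of Dlgap5 (0.098), Kif2c (0.14), Birc5 (the pair named above) and Pttg1 (0.23). The range over all 18 was -0.54 to 0.23.

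Most of the mitosis genes shared a spread between arrays within each group. The median level over the 44 genes was 0.55, 0.45, 0.24 and 0.11 on E7386 arrays and 0.72, 0.56, 0.40 and 0.042 on vehicle arrays. Replicate 1 was the highest and replicate 4 the lowest in each group, a range of 0.44 with E7386 and 0.68 with vehicle. The range within a group was larger than the difference between groups for 44 of 44 genes in each group, with a median range of 0.52 with E7386 and 0.60 with vehicle. A range over 4 arrays is commonly larger than a difference of means, and the share of all genes for which this holds was not counted. The median SD within groups was 0.24 over the mitosis genes and 0.18 over all genes tested, while the median absolute difference between groups was 0.098 over the mitosis genes and 0.13 over all genes.

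Replicate 1 held the highest level for 38 of the 44 genes with E7386 (86.4%, against 31.9% of all genes) and for 34 with vehicle (77.3%, against 31.1%). Replicate 4 held the lowest level for 32 genes with E7386 (72.7%, against 27.4%) and for 36 with vehicle (81.8%, against 26.9%). All 4 of these conditions were met by 22 mitosis genes (50.0%) and by 3.45% of all genes without a missing value. These counts describe the arrays and were made after the pattern was seen. Replicate 1 was highest in neither group for Cenpf, Hmmr and Pttg1. Among the 17 other detected probes of mitosis genes with all values, replicate 1 was highest for 10 with E7386 and 9 with vehicle, and replicate 4 was lowest for 11 with E7386 and 14 with vehicle.

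**Figure D3:**
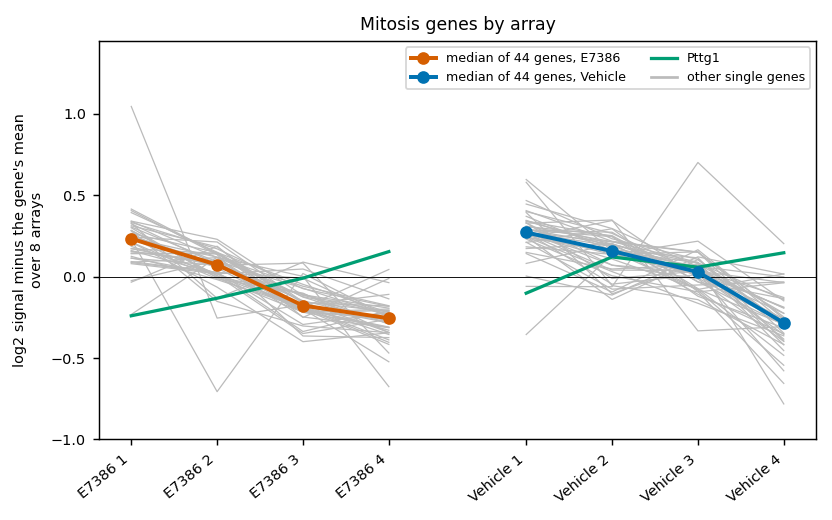
Normalised log2 signal of the 44 mitosis genes on each array, with each gene's mean over the 8 arrays subtracted, E7386 arrays (left) and vehicle arrays (right); grey lines join the values of 1 gene and imply no order of arrays, thick lines join the medians of the 44 genes and the green line is Pttg1. Replicate 1 is high and replicate 4 low in both groups for most genes, and Pttg1 shows the opposite.

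The markers of skeletal muscle moved the other way between arrays. All 14 of the 14 muscle genes listed were tested and detected on all arrays, and each was lowest on replicate 1 in both groups. Their summed normalised signal was 218.9, 339.5, 1270 and 1404 on E7386 arrays and 171.5, 886, 1120 and 1263 on vehicle arrays. With the median muscle level as a covariate, a fit chosen after seeing the data, 0 mitosis genes passed at an adjusted p under 0.05, and Bub1 came nearest at -0.32 (limma adjusted p = 0.0677, with a range of 0.0677 to 0.661 over all its alternatives). Without the 3 arrays lowest in muscle (E7386 replicates 1 and 2 and vehicle replicate 1), also chosen after seeing the data, 0 mitosis genes passed and their median difference was -0.17. The part of muscle in the spread between arrays was not tested, and since arrays of 1 replicate number share a column of the slide, column and sample cannot be told apart. Markers of the hair matrix, 9 of 9 tested and 8 detected on all arrays, summed to 51.8 to 70.5 on E7386 arrays and 49.6 to 76.9 on vehicle arrays, and hair shaft keratins, 8 of 10 tested, all detected on all arrays, to 2644 to 4309 on E7386 arrays and 1483 to 3752 on vehicle arrays. The labelled tissue thus carries its defining markers, together with muscle and with markers of fat, leukocytes, endothelium and dermal fibroblasts. Of 10 fat and 7 endothelial markers, 8 and 6 were lowest on replicate 1 with vehicle, but 2 and 1 with E7386.

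Genes of neighbouring steps of division were set beside the 44, from lists drawn up with earlier results of these data known. Of 56 other mitosis genes (condensins, further kinetochore and checkpoint subunits and the like), 54 were tested, 0 passed the test in limma, 2 had an unadjusted p under 0.05 (15.2% of all genes did), 35 had a lower mean (48.0% of all genes did) and the median difference was -0.058. The smallest p among them belonged to Mad1l1, which anchors the checkpoint protein MAD2 at kinetochores, at -0.30 (SE 0.083, limma adjusted p = 0.147). All E7386 arrays lay below all vehicle arrays for Mad1l1, 1 of the 54 genes, where 5.7% of all genes did. The 4 conditions on replicates 1 and 4 given above were all met by 23 of the 54 genes (42.6%).

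Of 14 genes of the anaphase promoting complex, 13 were tested, 11 had a lower mean (48.0% of all genes did) and 0 passed in limma, 3 having an unadjusted p under 0.05 (15.2% of all genes did), with a median difference of -0.040. All E7386 arrays lay below all vehicle arrays for 3 of the 13, where 5.7% of all genes did. The median level over the 13 genes was that of Cdc16 on every array. It ran from 3.11 to 3.24 on E7386 arrays and from 3.31 to 3.52 on vehicle arrays. Its subunit Cdc27 differed by -0.35 (SE 0.079, limma adjusted p = 0.0910), and Anapc11, the RING subunit, by -0.24 (limma adjusted p = 0.118), each with no overlap between groups. A list of 16 genes held genes of the DREAM and MYB-MuvB complexes, which repress or activate promoters with a CHR. It also held the genes of NF-Y and the retinoblastoma gene. Of the 16, 1 passed, where 1.12% of all genes did. Tfdp2, a dimerisation partner of E2F factors, had levels of 0.51, 0.51, 0.81 and 0.74 on E7386 arrays and 0.043, 0.032, 0.073 and 0.15 on vehicle arrays. Every E7386 array was above every vehicle array, as for 2 of the 16 genes and 4.83% of all genes. Tfdp2 rose by 0.57 (SE 0.091, limma adjusted p = 0.0328). That call was lost without any 1 array other than E7386 replicate 1, with limma adjusted p of 0.0480 to 0.103 when 1 array was left out, and the mean over the probes of Tfdp2 differed by 0.36 (limma adjusted p = 0.123). The adjusted p was 0.0713 with no detection filter.

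Of 41 genes of DNA replication, 40 were tested, 36 had a lower mean with E7386 and 2 passed the test, where 48.0% and 1.12% of all genes did. In limma 22 of the 40 had an unadjusted p under 0.05, all 22 lower, where 15.2% of all genes had one. The number that passed was 5 without E7386 replicate 1, 0 without any of the other 7 arrays in turn, 0 with no detection filter and 11 with the muscle covariate. Mcm2, which belongs to the MCM helicase of replication forks, fell by 0.72 (SE 0.12, limma adjusted p = 0.0395), and Cdc6, a loader of MCM at origins, fell by 0.74 (SE 0.13, limma adjusted p = 0.0412). When 1 array was left out, the limma adjusted p ran from 0.0145 (without E7386 replicate 1) to 0.134 for Mcm2, whose call was lost without any of the other 7 arrays, and from 0.0524 to 0.130 for Cdc6, and both calls were also lost with no detection filter (limma adjusted p = 0.0820 and 0.0842). The Cdc6 difference was -0.33 after normexp on median signals, a fit chosen after seeing the data. The median difference was -0.28 over the replication genes and -0.068 over the mitosis genes, and 14 of 40 replication genes had all E7386 arrays below all vehicle arrays, against 0 of 44 mitosis genes and 5.7% of all genes. The difference between the lists was not tested. The median level of the replication genes was 1.40, 1.07, 1.12 and 0.92 on E7386 arrays and 1.69, 1.51, 1.57 and 1.56 on vehicle arrays. Every E7386 value lay below every vehicle value, and the vehicle medians of the replication genes spanned less than those of the mitosis genes. Replicate 1 was highest for 35 of the 40 replication genes with E7386 (87.5%) and for 33 with vehicle (82.5%). The 4 conditions on replicates 1 and 4 given above were all met by 12 of them (30%).

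**Figure D4:**
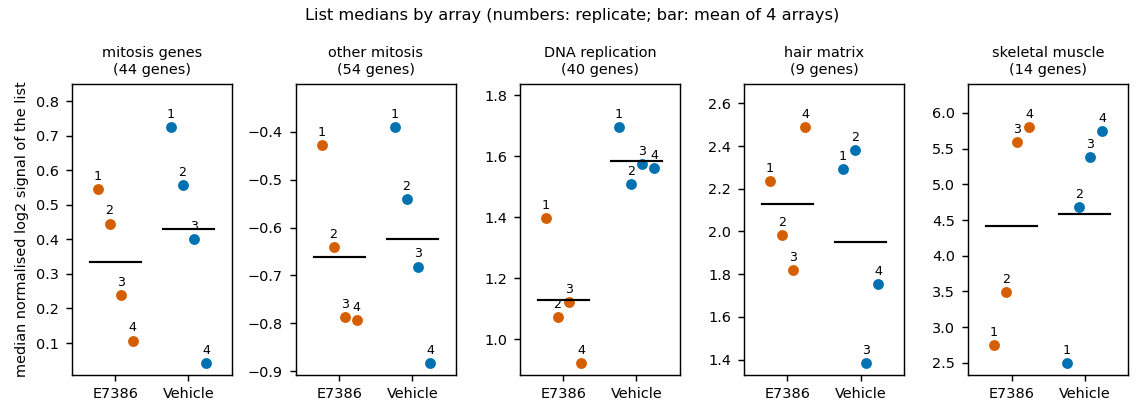
Median normalised log2 level of the mitosis genes, other mitosis genes, DNA replication genes, hair matrix markers and skeletal muscle markers on each array, E7386 (left) and vehicle (right), with the replicate number beside each point, the mean of 4 arrays as a bar and a scale of its own for each list. The mitosis medians overlap between groups, from 0.11 to 0.55 with E7386 and 0.042 to 0.72 with vehicle, and the replication medians do not, from 0.92 to 1.40 with E7386 and 1.51 to 1.69 with vehicle.

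**Figure D5:**
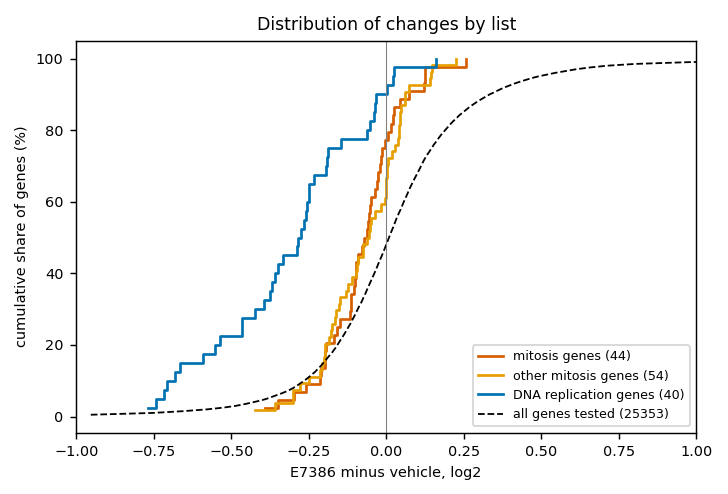
Cumulative share of genes in percent (vertical axis) with a log2 difference, E7386 minus vehicle, at or below the value on the horizontal axis, for the 44 mitosis genes, 54 other mitosis genes, 40 DNA replication genes and all 25353 genes tested. The mitosis genes span -0.39 to 0.26 around a median of -0.068, with Cenpf and Aurkb, near background, at the ends as measured; the median is -0.058 for the other mitosis genes, -0.28 for the replication genes and 0.0088 for all genes.

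Of 12 inhibitors of the cell cycle, 10 had a higher mean with E7386, where 52.0% of all genes had one, and the median difference was 0.15. The test in limma was passed by 0, and 4 had an unadjusted p under 0.05 (15.2% of all genes did). All E7386 arrays lay above all vehicle arrays for 3 of the 12, where 4.83% of all genes did. The smallest p belonged to Cdkn2a, which encodes p16 and p19ARF, at 0.89 (limma adjusted p = 0.118), and then to Gadd45b, a stress-induced gene, at 0.41 (limma adjusted p = 0.129).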

How the data were processed

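The authors hybridised Cy3-labelled cRNA made from 50 ng of total RNA per sample to 1-colour Agilent arrays, per the labels' protocols. The scanner files deposited by the authors hold background-corrected intensity per spot from Feature Extraction 11.5.1.1, per the file headers (version 11 per the submitters' processing notes). Log2 values of these arrays, in a table that the authors deposited, served as an alternative.

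Control spots were left out, spots marked as non-uniform or as population outliers were set to missing, and spots of 1 probe were averaged. From log2 of the processed signal, the 75th percentile over the probes of the array was subtracted. Symbols came from matching unversioned accessions to RefSeq of GRCm38.p6 (27509 of 55681 probes). No probe coordinates are given, because the array design rests on mm9. A gene needed its brightest probe well above background on 3 or more of the 4 arrays in either group, which left 25353 genes. Of these, 16133 have a symbol, and the others were counted under the name given on the array. Shares of all genes and the Benjamini-Hochberg adjustment cover both kinds. Differences were fitted across all of them in limma 3.58.1 (lmFit, eBayes; R 4.3.3), with Benjamini-Hochberg adjustment at 0.05. Tested on simulated data (25326 genes, 20 runs, 200 genes changed by each size), the fit recovered 38.6%, 75.2% and 93.4% of genes changed by 0.5, 1 and 2 log2 units, with 5.41% of calls false.

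The members, the lists and the tests were chosen with earlier results of these data known. Any of the 44 genes may be named. Of other lists, the members past the threshold are named, or otherwise from the 4 with the smallest p. Alternatives were other scalings, filters, choices of probe, variance models, array weights, a replicate block and leaving out arrays. Normexp was planned on the mean signal and run, with an offset of 50, on median signals instead.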

Additional observations from a re-analysis of the deposited data

Results flagged for a closer look

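In 5 of the 88 sets of 4 arrays checked (44 genes in 2 groups), 1 array lay far from the other 3, by the gap to the nearest array divided by the range of the group. Chance flags about 1 in 20 such sets. Kif2c on E7386 replicate 4 was low, at -3.29 against -2.75 for the nearest E7386 array, a ratio of 0.924. Aurkb on E7386 replicate 1 was high, at -3.75 against -4.91 (ratio 0.888), and on vehicle replicate 4 low, at -5.58 against -4.75 (ratio 0.891). Ccnb2 on vehicle replicate 4 was low, at 1.68 against 2.10 (ratio 0.900). Nusap1 on vehicle replicate 1 was high, at 0.67 against 0.42 (ratio 0.846). In these 5 sets the array stands to the same side as the median of the 44 genes does, high on replicate 1 and low on replicate 4.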

How the results depend on the processing

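The count of mitosis genes past the threshold was 0 under all 21 alternative fits (18 planned, 3 added after seeing the data). In the fit reported 0 had an adjusted p under 0.1, which 1, Bub1, reached with the muscle covariate. Unadjusted p under 0.05 was reached by 0 of them in the fit reported and by up to 6 (13.6%) with the muscle covariate, where 20.3% of all genes reached it. Their median difference ran from -0.17 (without the 3 arrays low in muscle, E7386 replicates 1 and 2 and vehicle replicate 1, an added alternative) to 0.0032 (without E7386 replicate 4), below 0 in 20 of 21. The sign of a gene's difference turned in 94 of 922 values, and 16 of the 44 genes kept theirs throughout. Scaling by the array median gave 40 genes with a lower mean and a median of -0.14, with all genes at -0.068. The count over all genes, 284, moved to 154 with no detection filter, to 641 with the muscle covariate, to 48 without the 3 arrays, to 687 at an adjusted p under 0.1 and to 3850 at an unadjusted p under 0.05. Leaving out 1 array gave 88 (without E7386 replicate 3) to 240 (without E7386 replicate 1), with 125 and 100 without E7386 replicates 2 and 4 and 139, 107, 121 and 157 without vehicle replicates 1, 2, 3 and 4. With the replicate number as a block, 59 genes and 0 mitosis genes passed, and 5 mitosis genes (Bub1, Cdca8, Top2a, Pbk and Racgap1, all lower) had an unadjusted p under 0.05, against 16.8% of all genes. The numbers were not taken to pair the samples, since deviations of same-numbered arrays over all genes correlated at 0.49, -0.17, 0.29 and 0.18 and 3 of 8 arrays correlated best with their own number. Same-numbered arrays do share a column of the slide, and the mitosis medians fell from replicate 1 to replicate 4 in both groups. The fit without the block leaves that shared spread in its error. Under the block Tfdp2, Mcm2 and Cdc6 had limma adjusted p of 0.0965, 0.0965 and 0.115. Their direction held in all 21 alternatives, with an adjusted p under 0.05 in 10, 11 and 8. The causes of these moves were not tested. Normexp on the mean signal was not run. Cenpf and Aurkb lay near background, which limits their values.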
